A study of Mus musculus with 6 samples.

Results

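Alpha-parvin (*Parva*), integrin-linked kinase (*Ilk*) and the proteins that assemble with them at the cell's attachment sites were followed in the mRNA of isolated lung endothelial cells (iLECs). The 10 genes were chosen by name: the parvins *Parva*, *Parvb* and *Parvg*, *Ilk*, the PINCH genes *Lims1* and *Lims2*, *Rsu1*, the kindlin *Fermt2*, talin (*Tln1*) and vinculin (*Vcl*). All 10 were present in the deposited table of 24972 genes, and all 10 passed the filter on low values that left 14456 genes for testing. Lungs were taken on postnatal day 7 (P7) from 3 control samples, labelled *Atp6ap2* fl/Y, and 3 Atp6ap2iECKO samples, labelled *Atp6ap2* fl/Y with Cdh5-CreERT2. All 6 samples carried the floxed *Atp6ap2* allele, the pups received 100 μg tamoxifen on days P1 to P3, and cells were captured on beads coated with antibody to CD31. Cdh5-CreERT2 is a tamoxifen-dependent Cre recombinase driven by the VE-cadherin promoter, which is active in endothelium. The transgene was present only in the Atp6ap2iECKO samples, so an effect of activated Cre and an effect of the deletion cannot be told apart. The labels give the strain as C57BL/6, whereas the methods describe a mixed CD1 and C57BL/6 background. Nothing in the labels says whether a sample was 1 pup or a pool, and P values measure only the spread between these samples.

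Integrins are transmembrane receptors that hold cells to the extracellular matrix but have no enzymatic activity of their own. Talin and kindlin bind the tails of integrin beta subunits and switch the receptor to its active form, and vinculin strengthens the connection from talin to actin. ILK is a pseudokinase that binds kindlin and forms a tight complex with a PINCH adaptor on one side and a parvin on the other, where the parvin contacts actin and RSU1 binds PINCH. In blood vessels this machinery is known for vessel stability, and alpha-parvin for endothelial junctions and polarity. The study followed PARVA at the protein level because of its part in endothelial polarity, and reported less of it in Atp6ap2iECKO iLECs. It also reported lower *Parva* mRNA in this RNA-Seq and, by qPCR, in isolated retinal endothelial cells. The comparison of genotypes here asks how the mRNA of PARVA and its partners stood in each library.

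The targeted gene was examined first. *Atp6ap2*, which encodes an accessory subunit of the vacuolar proton pump, read 7490, 5815 and 5681 normalized counts in control replicates 1 to 3 and 4220, 2336 and 1982 in the Atp6ap2iECKO replicates. The genotypes did not overlap, and the log2 fold change was −1.22 (SE 0.26, limma adjusted P = 0.0306). This call was lost when any of 5 libraries was left out, namely each of the 3 controls and Atp6ap2iECKO replicates 2 and 3, with adjusted P values of 0.0628 to 0.104 and log2 fold changes of −1.29 to −0.999. *Xist*, the RNA expressed from the inactive X chromosome of females, was between 37704 and 47487 in 4 libraries and at 31.7 and 19.3 in control replicate 3 and Atp6ap2iECKO replicate 2. The label fl/Y therefore went against the data in 4 of the 6 libraries. In the 4 libraries with *Xist*, 2 of each genotype, the log2 fold change of *Atp6ap2* was −1.19 (limma adjusted P = 0.222).

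Endothelial markers were abundant in every library. VE-cadherin (*Cdh5*) ranged from 76599 to 110813 in controls and from 87877 to 101503 in Atp6ap2iECKO iLECs, and *Pecam1*, which encodes CD31, from 48730 to 57593 in controls and from 55535 to 57759 in mutants. Both genes overlapped between genotypes. The 24 endothelial markers had a median log2 fold change of 0.0012 and summed to 506922 to 674105 in controls and to 486651 to 588481 in mutants. Of these, only the angiopoietin receptor *Tek* fell past the threshold (−0.53, limma adjusted P = 0.0292). It passed without Atp6ap2iECKO replicate 1 but not on leaving out any of the other libraries (−0.57 to −0.46, limma adjusted P = 0.0525 to 0.117). Averaged over the 6 libraries, *Cdh5*, *Pecam1* and *Ptprb* had the highest counts of the list. *Ptprb* had a log2 fold change of −0.68 (limma adjusted P = 0.0527), which passed with some other settings, at 0.0111 with scaling to endothelial markers and 0.031 with scaling to the library total. The scaling to endothelial markers was chosen after seeing the data and uses *Ptprb* itself as 1 of the 24 markers, so it is no independent check of this gene. Markers of other cells were present too. Beside the counts of each marker list, 8.25% of all tested genes passed a limma adjusted P of 0.05, and 4.97% passed with lower values in mutants. Of 14 fibroblast markers 12 were tested and 10 fell, including *Mfap4*, *Wnt2*, *Col1a1*, *Col1a2*, *Col3a1* and *Fgf10*, with a list median of −1.49 and summed levels of 80891 to 124242 in controls against 28629 to 40834 in mutants. Of 14 mural and smooth muscle markers, all tested, 9 fell, including *Rgs5*, *Cox4i2*, *Des*, *Notch3*, *Pdgfrb*, *Cspg4* and *Myh11*, with a median of −1.53 and sums of 14433 to 21946 against 5926 to 7542. Among the defining genes of both lists, log2 fold changes were −1.35 for *Pdgfra*, −1.62 for *Col1a1*, −1.54 for *Pdgfrb* and −1.45 for *Acta2*, the last with a limma adjusted P of 0.0504. On leaving out a library, these values ran from −1.56 to −1.16, −1.90 to −1.38, −1.72 to −1.43 and −1.84 to −1.14, in the same order. In bulk RNA, fewer cells of a type and less RNA per cell cannot be told apart.

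None of the 14 leukocyte markers passed the limma threshold, adjusted or unadjusted, and their sums spread widely within a genotype, from 7517 to 13925 in controls and from 6497 to 19274 in mutants. *Lyz2*, *Ptprc* and *Laptm5* had the highest counts of them, and *Ptprc*, the pan-leukocyte gene CD45, ranged from 996 to 1930 in controls and from 956 to 3106 in mutants. None of the 9 platelet and megakaryocyte markers tested of 10 passed either threshold, with sums of 975 to 2674 and 1065 to 2322. *Gp1ba*, *Pf4* and *Ppbp* led this list, and *Pf4* ranged from 94.0 to 463 and from 58.6 to 407. The 14 epithelial markers, led by *Sftpc*, *Ager* and *Abca3*, summed to 30544 to 77845 in controls and to 37291 to 44658 in mutants. Control replicate 3 stood out, with *Sftpc* at 39068 beside 15632 and 13596 in control replicates 1 and 2. Of the list, only the club cell gene *Scgb1a1* rose (1.75, limma adjusted P = 0.0408). That call was lost on leaving out control replicate 1 or 2 or any Atp6ap2iECKO library (1.40 to 2.04, limma adjusted P = 0.0596 to 0.145). *Epcam* ranged from 112 to 318 and from 111 to 152. Of 4 mesothelial markers, *Msln*, *Upk3b*, *Wt1* and *Lrrn4*, only *Msln* was tested, and it did not pass. No marker of these 7 lists was at 0 in all libraries. The part of other cell types in the results on the 10 genes was not tested.

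The 3 parvins are related genes, and reads could in principle be shared between them. Over the aligned coding bases, *Parva* and *Parvb* were identical at 71.1% of 1095 positions, with no identical run longer than 14 bases. *Parva* and *Parvg* were identical at 64.4% of 937 positions, and *Parvb* and *Parvg* at 62.7% of 942. A stretch of 60 coding bases at the junction of exons 10 and 11 of 13 in both genes is shown because it surrounds the longest identical run of the pair, and it differs at 12 positions, marked in capitals. The sequences are from the GENCODE vM21 transcripts on GRCm38 (mm10). The *Parva* stretch spans an intron within chr7:112576978-112579688 and the *Parvb* stretch one within chr15:84303877-84308885, both on the plus strand.
Parva: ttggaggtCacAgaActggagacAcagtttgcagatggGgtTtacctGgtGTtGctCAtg
Parvb: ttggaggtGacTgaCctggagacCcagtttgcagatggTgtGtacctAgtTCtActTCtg
No window of 75 transcript bases was shared between any of the 10 genes. *Parva* shared 0.168% of its windows with other genes, and *Parvb*, *Parvg*, *Lims1*, *Rsu1* and *Fermt2* shared none. *Ilk* shared 58.4% of its windows, mostly with *Taf10*, and *Vcl* shared 24.9% with *Ap3m1*, both of them overlapping neighbors. *Tln1* shared 2.88% with *Creb3* and *Lims2* 1.53% with *Gpr17*. The library kit does not record strand, so the values of *Ilk* and *Vcl* are uncertain to the extent that reads of these neighbors were counted with them. *Taf10* itself ranged from 277 to 390 in controls and from 345 to 387 in mutants and its log2 fold change was 0.22. *Ap3m1* had a log2 fold change of 0.21 (limma adjusted P = 0.149).

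Upstream sequence is shown for *Rsu1* and *Parvb*, the pair with the clearest opposite differences among members with a single listed start. The 250 bases before each RefSeq start (GRCm38.p6) are printed 5′ to 3′ on the gene's strand, with each GC box GGGCGG, on either strand, in capitals. The *Rsu1* sequence lies at chr2:13271416-13271665 on the minus strand and the *Parvb* sequence at chr15:84231793-84232042 on the plus strand.
Rsu1: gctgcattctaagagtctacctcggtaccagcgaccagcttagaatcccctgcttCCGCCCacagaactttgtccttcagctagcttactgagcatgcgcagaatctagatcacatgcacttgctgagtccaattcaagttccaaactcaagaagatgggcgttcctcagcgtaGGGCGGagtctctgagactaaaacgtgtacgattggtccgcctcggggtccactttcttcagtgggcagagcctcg
Parvb: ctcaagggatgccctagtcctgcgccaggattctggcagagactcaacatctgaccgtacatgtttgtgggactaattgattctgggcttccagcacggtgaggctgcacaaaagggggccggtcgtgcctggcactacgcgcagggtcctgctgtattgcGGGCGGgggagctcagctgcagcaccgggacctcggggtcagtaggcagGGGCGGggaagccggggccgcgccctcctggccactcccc
Each held 2 GC boxes. At least 1 start of *Ilk*, *Lims1*, *Vcl*, *Fermt2* and *Parvg* also had the letters before it, and that of *Tln1* had not. *Ilk*, *Lims1* and *Parvg*, with more than 1 start each, also had a start without the letters. Counted by start rather than by gene, the letters were found before 32.7% of all 32851 starts in the table. The table had entries for 8 of the 10 genes with 12 starts, and *Parva* and *Lims2* were without one. A CArG box, the letters bound by serum response factor, stood before the starts of *Vcl* and *Fermt2* and before 1.47% of all starts. Neither the E-box CACGTG nor the letters GGAATG, read on both strands, stood before the start of *Rsu1* or *Parvb*, and the first were found before 6.02% and the second before 12.6% of all starts. Among the other members, the E-box stood before a start of *Ilk* and of *Lims1*, and GGAATG before that of *Vcl*. A match describes these windows only.

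Across the 10 genes, none passed a limma adjusted P of 0.05, a threshold that 8.25% of all tested genes passed and 4.97% passed with lower values in Atp6ap2iECKO iLECs. At an unadjusted P below 0.05 there were 5 of 10, 4 lower and 1 higher, beside 23.9% of all tested genes. In 5 of 10 the genotypes did not overlap, beside 29.8% of all tested genes, and 4 of these were lower in mutants (*Parva*, *Rsu1*, *Ilk* and *Lims1*), beside 15.0%. The median log2 fold change of the 10 was −0.15, with a range of −0.28 to 0.31, while that of all tested genes was 0.0049.

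**Figure D1:**
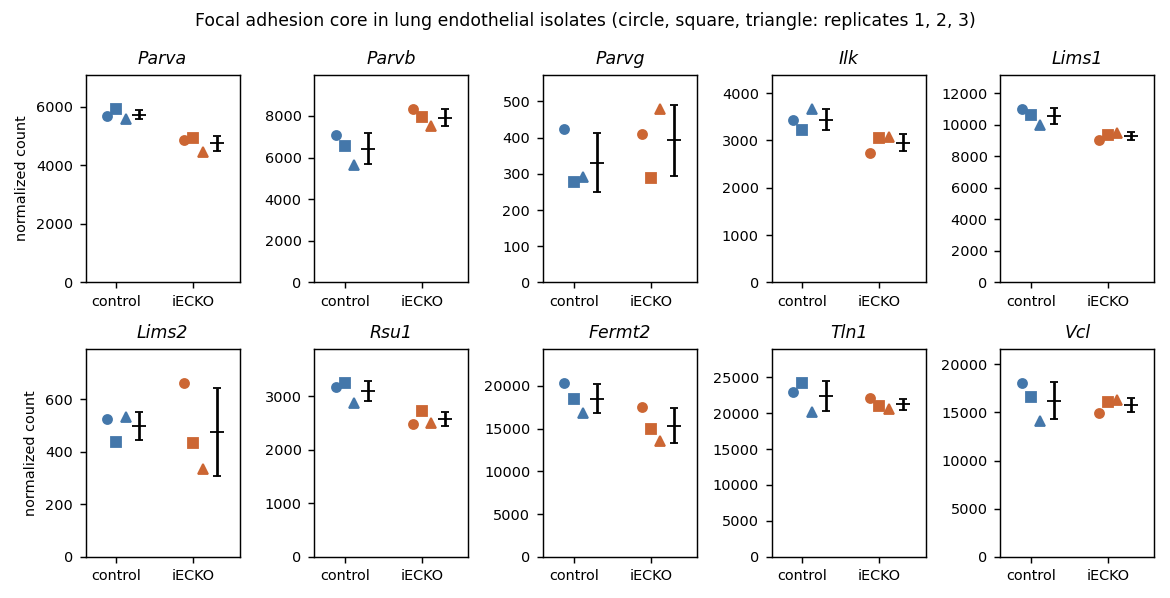
Normalized counts of the 10 genes in each library (linear axes from 0), with the mean and SD of the 3 libraries of each genotype at the right of the points. The genotypes stood apart for *Parva*, *Parvb*, *Ilk*, *Lims1* and *Rsu1* and overlapped for *Parvg*, *Lims2*, *Fermt2*, *Tln1* and *Vcl*.

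Levels between genes can be compared only per length. Per kilobase of the longest protein-coding transcript, the control means ran from 5623 ± 524 for *Fermt2* through 3082 ± 372 for *Vcl*, 2668 ± 244 for *Tln1*, 2439 ± 114 for *Lims1*, 1929 ± 119 for *Rsu1*, 1916 ± 120 for *Ilk*, 1696 ± 195 for *Parvb* and 1288 ± 37.2 for *Parva* to 266 ± 28.8 for *Lims2* and 123 ± 30.2 for *Parvg* (SD, n = 3). *Fermt2* stood above all others in every control library, and *Lims2* and *Parvg* stood below. The control ranges of *Vcl* and *Tln1* and of *Tln1* and *Lims1* overlapped. So did those of every pair among *Rsu1*, *Ilk* and *Parvb*. Within each control library, however, *Vcl* stood above *Tln1*, *Tln1* above *Lims1*, and both *Rsu1* and *Ilk* above *Parvb*. Of these pairs only *Rsu1* and *Ilk* changed order, with *Ilk* higher in control replicate 3 (2040 against 1794) and *Rsu1* higher in replicates 1 and 2. The order of *Rsu1* and *Ilk* is therefore not resolved. This scale depends on the transcript chosen. Over all annotated exons of a gene, the control mean was 565 per kilobase for *Parva* and 333 for *Rsu1*, and the annotation behind the deposited values is not given in the sources used here.

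Among the parvins, the actin-binding arm of the complex, *Parva* and *Parvb* differed between genotypes in opposite directions. *Parva* (chr7:112427505-112591692, plus strand, GRCm38), the broadly expressed alpha-parvin, had normalized counts of 5696, 5921 and 5598 in controls and of 4880, 4923 and 4454 in Atp6ap2iECKO iLECs. Every mutant library was below every control library. The means were 5738 ± 166 and 4752 ± 259 (SD, n = 3), a difference of −17.2%, and the log2 fold change was −0.27 (95% interval −0.45 to −0.10, limma adjusted P = 0.0680). Scaling the libraries to the geometric mean of the endothelial markers, an alternative chosen after seeing the data, moved this value to −0.19 (limma adjusted P = 0.440), and in the 4 libraries with *Xist* it was −0.32 (limma adjusted P = 0.271).

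*Parvb* (chr15:84232043-84315688, plus strand), which encodes beta-parvin and binds the same site of ILK as alpha-parvin, had normalized counts of 7092, 6534 and 5628 in controls and of 8321, 7929 and 7493 in mutants. Every mutant library was above every control library, and the means were 6418 ± 739 and 7915 ± 414 (SD, n = 3). The log2 fold change was 0.31 (95% interval 0.07 to 0.54, limma adjusted P = 0.112). With each library scaled to its total, the value was 0.35 and passed the threshold (limma adjusted P = 0.0358). In the 4 libraries with *Xist* it was 0.21 (limma adjusted P = 0.426).

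*Parvg* (chr15:84324026-84342978, plus strand), which encodes gamma-parvin and is known chiefly from blood cells, lay next to *Parvb* and was far less abundant. Its normalized counts were 425, 277 and 290 in controls and 411, 287 and 479 in mutants. The genotypes overlapped, and the log2 fold change of 0.24 had a wide interval (−0.30 to 0.78, limma adjusted P = 0.592). It ran from 0.08 without Atp6ap2iECKO replicate 3 to 0.45 without Atp6ap2iECKO replicate 2. The leukocyte gene *Ptprc* was also highest in control replicate 1 among controls and in Atp6ap2iECKO replicate 3 among mutants. Other leukocyte markers had another order. *Lyz2*, with the highest counts of that list, peaked in control replicate 3 (5198) among controls and in Atp6ap2iECKO replicate 1 (5097) among mutants. The part of leukocytes in the level of *Parvg* was not tested.

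The ratio of *Parva* to *Parvb* within a library does not depend on how libraries were scaled. It was 0.803, 0.906 and 0.995 in controls and 0.587, 0.621 and 0.594 in Atp6ap2iECKO iLECs. The lowest control ratio was above the highest mutant ratio, and the mutant ratios lay close together. The log2 ratio averaged −0.16 ± 0.15 in controls and −0.74 ± 0.04 in mutants (SD, n = 3), a difference of −0.58 with a two-sided exact permutation P of 0.1, which is the smallest that 3 samples against 3 allow. In the 4 libraries with *Xist* the difference was −0.53. Per kilobase of transcript, *Parva* went from 1288 to 1067 and *Parvb* from 1696 to 2092, and *Parvb* was above *Parva* in every library.

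**Figure D2:**
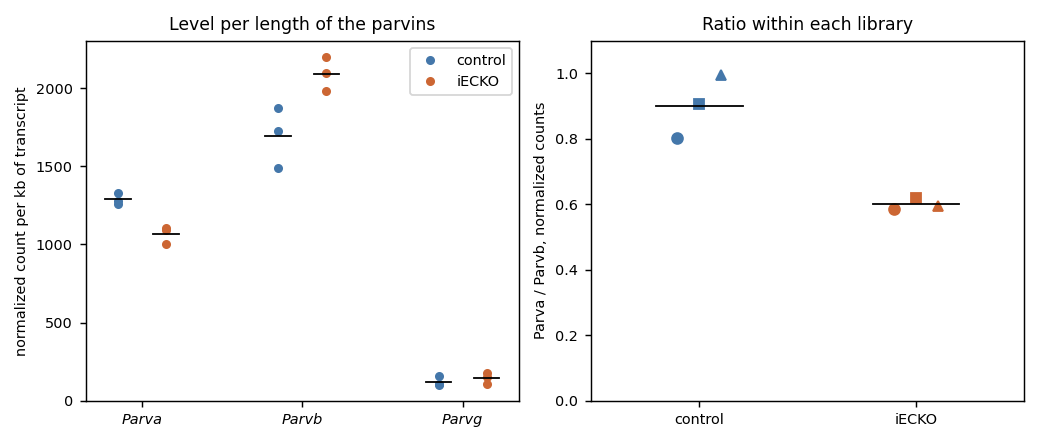
Left, level of each parvin per kilobase of its longest protein-coding transcript in 3 control and 3 Atp6ap2iECKO libraries; right, the ratio of *Parva* to *Parvb* normalized counts in each library, with circle, square and triangle for replicates 1, 2 and 3. Lines are means; control ratios lie between 0.803 and 0.995 and mutant ratios between 0.587 and 0.621.

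*Ilk* (chr7:105736592-105742925, plus strand), the scaffold at the center of the complex, had normalized counts of 3427, 3230 and 3661 in controls and of 2744, 3053 and 3064 in mutants. The genotypes did not overlap, although control replicate 2 and mutant replicate 3 were close. The log2 fold change was −0.22 (95% interval −0.41 to −0.02, limma adjusted P = 0.162). With scaling to endothelial markers it was −0.14 and with scaling to the library total −0.18.

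Of the PINCH adaptors, *Lims1* (chr10:58323466-58424691, plus strand) encodes PINCH1 and was by far the more abundant. Its normalized counts were 10996, 10640 and 10020 in controls and 9011, 9386 and 9513 in mutants, without overlap. The log2 fold change was −0.18 (95% interval −0.36 to −0.0018, limma adjusted P = 0.205), and with scaling to endothelial markers it was −0.10. *Lims2* (chr18:31922290-31958619, plus strand), which encodes PINCH2, had 525, 436 and 532 in controls and 660, 433 and 335 in mutants. The mutant libraries of *Lims2* spanned the whole control range, and the log2 fold change of −0.12 had an interval of −0.66 to 0.43 and ran from −0.38 without Atp6ap2iECKO replicate 1 to 0.11 without Atp6ap2iECKO replicate 3. The ratio of *Lims1* to *Lims2* was 20.9, 24.4 and 18.8 in controls and 13.7, 21.7 and 28.4 in mutants, a log2 difference of −0.06 with a two-sided exact permutation P of 0.9. No difference in the PINCH ratio was resolved at this spread, in contrast to the separated parvin ratios, although the 2 differences were not tested against each other.

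*Rsu1* (chr2:13076821-13271415, minus strand) encodes the Ras suppressor that binds PINCH1. Its normalized counts were 3171, 3235 and 2877 in controls and 2476, 2724 and 2504 in mutants. All mutant libraries were below all controls, with means of 3094 ± 191 and 2568 ± 136 (SD, n = 3), and the log2 fold change was −0.27 (95% interval −0.46 to −0.08, limma adjusted P = 0.0910). It was −0.36 in the 4 libraries with *Xist* and −0.19 with scaling to endothelial markers.

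The genotypes overlapped for the integrin activators and the actin linker. *Fermt2* (chr14:45458795-45530118, minus strand), encoding kindlin-2, had normalized counts of 20283, 18423 and 16838 in controls and of 17534, 14924 and 13492 in mutants. Only mutant replicate 1 reached into the control range, and the log2 fold change was −0.28 (95% interval −0.56 to 0.0046, limma adjusted P = 0.216). *Tln1* (chr4:43531519-43562691, minus strand), encoding talin-1, had 22926, 24124 and 20129 in controls and 22073, 21000 and 20597 in mutants. The mutant values lay inside the control range, and the log2 fold change of −0.07 had an interval of −0.31 to 0.16 and ran from −0.15 without control replicate 3 to −0.02 without control replicate 2. *Vcl* (chr14:20929398-21033676, plus strand) had 18001, 16565 and 14126 in controls and 14949, 16079 and 16314 in mutants. Here too the mutants lay inside the control range, with a log2 fold change of −0.03 (95% interval −0.29 to 0.22). Its sign changed with the scaling to 0.006 for library totals and 0.0447 for endothelial markers, and that of *Tln1* changed to 0.0052 for endothelial markers.

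**Figure D3:**
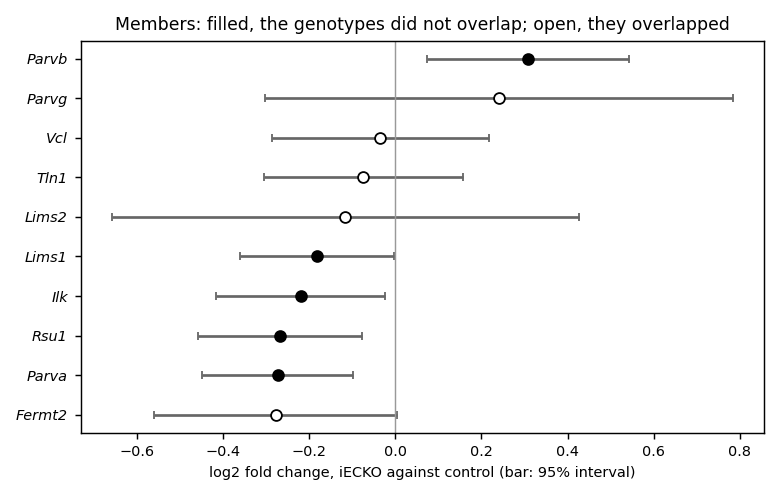
Log2 fold change of the 10 genes in Atp6ap2iECKO against control iLECs, ordered by size, with the 95% interval of the limma fit and 3 libraries per genotype. The intervals of *Parva*, *Rsu1*, *Ilk* and *Lims1* lie below 0 and that of *Parvb* above 0, and none of the 10 passed the adjusted threshold.

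Over the 6 libraries, the genes whose log2 profile around its own mean was most like that of *Parva*, among 11311 tested genes with a mean of at least 100, were *Add1*, *Gtf2i*, *Dopey2*, *Pde4a* and *Efnb1*. Their root mean square differences from *Parva* were 0.0217, 0.0236, 0.03, 0.0332 and 0.0356 on the log2 scale. *Add1*, which encodes the actin-capping protein adducin, had 9272, 9552 and 9078 in controls and 8163, 7871 and 7362 in mutants, a log2 fold change of −0.26. Of these 5 genes only *Efnb1*, encoding the ligand ephrin-B1, passed the threshold (−0.32, limma adjusted P = 0.0458), and it no longer passed on leaving out any of the 6 libraries (−0.35 to −0.27, limma adjusted P = 0.0551 to 0.18). The 5 genes were picked for a profile that carries the genotype difference, so their fold changes are no independent result. Among the other members *Rsu1* was nearest to *Parva* at 0.0577, with 56 genes nearer, followed by *Lims1* at 0.0862, *Fermt2* at 0.111, *Ilk* at 0.116 and *Tln1* at 0.12. *Vcl*, *Lims2*, *Parvb* and *Parvg* were farther, at 0.169, 0.289, 0.305 and 0.415. These values describe 6 libraries that share the genotype difference.

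Beyond the core, 24 partners that bind or act with ILK, PINCH or parvin were all tested. One of them fell, *Fblim1* (migfilin, a kindlin-binding adaptor), with 2679, 3243 and 3078 in controls and 1622, 1999 and 1603 in mutants and a log2 fold change of −0.79 (SE 0.12, limma adjusted P = 0.0113). Among all tested genes 8.25% were called, 4.97% lower, so 1 of 24 was near the background. None rose, and the median was −0.01. Without Atp6ap2iECKO replicate 3 no partner was called, and *Fblim1* had −0.73 (limma adjusted P = 0.0522). The partners with the highest counts overlapped between genotypes. *Arhgef7*, the exchange factor beta-PIX that binds parvin, was at 18286 to 24448 in controls and 19307 to 23084 in mutants. The alpha-actinin gene *Actn4* was at 17673 to 18736 in controls and 18052 to 19900 in mutants, and the GTPase gene *Rhoa* at 15205 to 17388 in controls and 15194 to 17446 in mutants.

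Of 40 further focal adhesion adaptors 39 were tested, and *Fermt1*, not tested, was above 0 in only 1 library. Of the 39, 7 fell and none rose, beside 4.97% of all tested genes called lower and 8.25% either way, with a list median of −0.16. *Nexn* (nexilin, an actin-binding protein) had 526, 772 and 633 in controls and 324, 306 and 214 in mutants, a log2 fold change of −1.20 (limma adjusted P = 0.0164). *Palld* (palladin, an actin cross-linker) had 2809, 4270 and 3418 in controls and 1919, 1568 and 1527 in mutants, a fold change of −1.05 on the log2 scale (limma adjusted P = 0.0121). Log2 fold changes were −0.77 for the kinase *Src*, −0.65 for *Tns1* (tensin-1, which ties integrins to actin), −0.49 for *Enah* (an actin polymerization factor) and −0.48 for *Kank2* (a talin-binding protein). The seventh gene was *Tns3*. *Src* (limma adjusted P = 0.0458) and *Enah* (limma adjusted P = 0.046) were close to the threshold and no longer passed on leaving out any single library. Their values then ran from −0.88 to −0.57 (limma adjusted P = 0.0516 to 0.156) and from −0.56 to −0.36 (limma adjusted P = 0.0508 to 0.136). On leaving out a library, *Tns1* passed only without Atp6ap2iECKO replicate 1. The adaptors with the highest counts were *Flna* (filamin A), *Csrp1* and *Tns1*. *Flna* was at 25027 to 30178 in controls and 23360 to 26083 in mutants and *Csrp1* at 16059 to 21084 in controls and 14614 to 15901 in mutants, and neither passed. The calls changed with the libraries used. None was made without control replicate 3 or without Atp6ap2iECKO replicate 3, 3 were made without control replicate 2 and 2 without Atp6ap2iECKO replicate 2, while the calls over all genes went from 1193 to 268 without control replicate 3 and to 204 without Atp6ap2iECKO replicate 3. Without the first of these the values of *Nexn* and *Palld* were −1.20 and −1.06, and without the second −1.01 and −0.99. These falls stood beside the lower fibroblast and mural markers described above, whose medians were −1.49 and −1.53, and the part of those cells was not tested.

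Among 10 regulators of integrin activation 1 fell, *Slc3a2* (the CD98 heavy chain, which binds integrin beta tails), with 8822, 7818 and 8056 in controls and 6178, 5671 and 5074 in mutants. Its log2 fold change was −0.55 (SE 0.10, limma adjusted P = 0.0183), and 1 call in 10 stands beside 4.97% of all tested genes called lower and 8.25% either way. Without control replicate 3 or Atp6ap2iECKO replicate 2 or 3 it no longer passed, with values of −0.56, −0.55 and −0.47. *Cav1* (caveolin-1) and *Rap1b* (the GTPase upstream of talin recruitment) had, with *Slc3a2*, the highest counts. *Cav1* was at 45358 to 55304 in controls and 45873 to 49827 in mutants and *Rap1b* at 14677 to 18240 in controls and 15917 to 17128 in mutants, and both overlapped between genotypes. The list median was −0.03.

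Of 20 integrin subunits 18 were tested, and 3 alpha subunits fell while none rose, beside 4.97% of all tested genes called lower and 8.25% either way. *Itga8*, the alpha subunit of a receptor for nephronectin, had 3816, 6625 and 5713 in controls and 1892, 1764 and 1449 in mutants, a log2 fold change of −1.63 (SE 0.20, limma adjusted P = 0.00848). *Itga7*, a laminin receptor subunit, had 145, 215 and 175 in controls and 64.3, 42.8 and 68.9 in mutants, a log2 fold change of −1.60. *Itga1*, a collagen receptor subunit, had 6968, 8435 and 6218 in controls and 3684, 3551 and 2906 in mutants, a log2 fold change of −1.09 (limma adjusted P = 0.00857). In none of these did the genotypes overlap. *Itga7* no longer passed without control replicate 3 (−1.60, limma adjusted P = 0.0588) or Atp6ap2iECKO replicate 2 (−1.39, limma adjusted P = 0.0509), which left 2 integrins called. The subunits with the highest counts overlapped between genotypes. *Itgb1*, the beta subunit shared by many matrix receptors, was at 45886 to 54124 in controls and 49770 to 52811 in mutants, and *Itga6* was at 11578 to 13326 in controls and 9694 to 12521 in mutants and *Itga5* at 9620 to 10177 in controls and 8869 to 10753 in mutants. The list median was 0.03. In the 4 libraries with *Xist*, where 1 gene of all tested was called, no integrin was called, but the values of *Itga8*, *Itga7* and *Itga1* were −1.60, −1.39 and −1.23. The fibroblast and mural markers were lower in the same libraries, and their part in the integrin values was not tested.

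**Figure D4:**
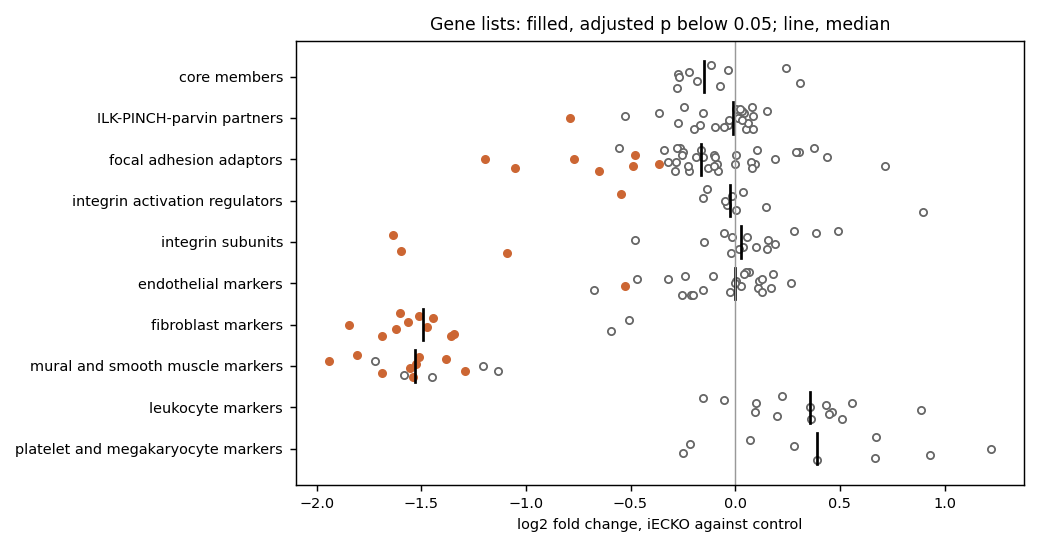
Log2 fold change, Atp6ap2iECKO against control, of every tested gene in the core, in 4 lists of adhesion genes and in 5 lists of cell type markers, with the list median as a line and genes past an adjusted P of 0.05 filled. The core lies between −0.28 and 0.31, the called adaptors and integrins lie below 0, and the fibroblast and mural medians are −1.49 and −1.53.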

How the data were processed

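RNA-Seq libraries were made from CD31+ lung cells with the TruSeq RNA v2 kit. The authors aligned reads to mm10 with the BaseSpace RNA-Seq alignment tool, quantified genes and deposited 1 table. The values the authors deposited are a signal per gene, already scaled between libraries and called normalized counts here. The labels name them raw counts, but most carry decimals, and each library's median ratio to the geometric mean was 1.0036. Read depth is therefore unknown, and totals of 26243878 to 28725799 reflect the scaling.

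Genes reaching 10 in 3 or more libraries entered the test, on log2(value + 1) with limma 3.58.1 (R 4.3.3), with a mean-variance trend and no covariate, over all genes, with Benjamini-Hochberg adjustment and a threshold of 0.05. Fold changes are on that log2 scale, which understates changes of low genes. Ratios were compared with an exact permutation test. The members and lists were chosen with earlier results of these data known. Named genes were the 10 members; of each list, every gene past the threshold (the 6 largest changes where more passed) and the 3 with the highest mean count over the 6 libraries, not divided by length; the 5 genes most like *Parva*; *Atp6ap2*, *Xist* and defining cell markers; *Tns3*, the overlapping neighbors and single genes outside this rule were named after their values were seen. Coordinates, transcripts and coding bases came from GENCODE vM21 (GRCm38) and upstream sequence from RefSeq, searched over 250 bases; figures were drawn with matplotlib. Scalings, filters, pseudocounts, covariates, weights, thresholds and leaving out libraries were tried as alternatives.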

Additional observations from a re-analysis of the deposited data

How the results depend on the processing

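Under 19 alternatives the log2 fold change of *Parva* stayed between −0.32 and −0.19, with a limma adjusted P of 0.0514 to 0.440, and passed only at a threshold of 0.1, where its value was −0.27 and 2 members were called. With library total scaling 1 member, *Parvb*, was called. No member was called on leaving out any single library. Replicate numbers were not taken to pair the samples in the main fit. Deviations of same-numbered libraries correlated by 0.252, 0.114 and 0.078, with a mean of 0.148 beside −0.074 for different numbers. Whether the numbers mark pairs was not tested. With the replicate block, 2 ILK-PINCH-parvin partners, 8 adaptors, 4 integrins and 1508 genes of all were called, no member was, and *Parva* had −0.27 (adjusted P = 0.0599). The scalings to library total, upper quartile and endothelial markers moved the median of all genes to 0.0452, 0.0108 and 0.0836.

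The number of partners called was 0 with only the 4 libraries with *Xist* and with no mean-variance trend, 2 with array quality weights, 3 at a threshold of 0.1, and 0 to 1 on leaving out a library. The number of adaptors was 3 with scaling to endothelial markers, 4 with an *Xist* covariate, 0 in the 4 libraries with *Xist* and with no trend, 11 with quality weights and at a threshold of 0.1, and 0 to 7 on leaving out a library. The number of activation regulators was 0 in the 4 libraries and with no trend, and 0 to 1 on leaving out a library, and that of integrins was 0 in the 4 libraries. Of all genes, 543 were called with scaling to endothelial markers, 767 with an *Xist* covariate, 1 in the 4 libraries, 304 with no trend, 1987 at a threshold of 0.1 and 204 to 989 on leaving out a library. *Atp6ap2* lost its call in the 4 libraries (−1.19) and with no trend (−1.22), and on leaving out a library its value was −1.54 to −0.999. Settings with fewer libraries test fewer samples, and the cause of the other changes was not tested.

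Values near 0 changed sign. *Vcl* was 0.006 by library total and 0.0447 by endothelial markers (−0.13 to 0.0439 on leaving out a library), *Tln1* was 0.0052 by endothelial markers, *Lims2* ran from −0.38 to 0.11 and the log2 ratio of *Lims1* to *Lims2* from −0.31 to 0.22 on leaving out a library, reversing without Atp6ap2iECKO replicate 3 for *Lims2* (0.11) and without control replicate 2 (0.03) or Atp6ap2iECKO replicate 1 (0.22) for the ratio. The difference in the log2 ratio of *Parva* to *Parvb* stayed between −0.66 and −0.51. With 3 libraries a genotype and no known read depth, the intervals of *Parvg* and *Lims2* in particular are wide.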
